A study of Homo sapiens with 118 samples.

Results

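The globin genes encode the protein chains of haemoglobin. The 10 genes examined were HBA1, HBA2, HBZ, HBM and HBQ1 of the alpha family and HBB, HBD, HBG1, HBG2 and HBE1 of the beta family. Members were found by name: a row of the count table belonged to a gene when its name, without the trailing probe number, was that symbol. Each gene had 1 row, so 10 of the 22068 rows of the table were used as members. A row counts the reads of 1 detector probe and is called a feature here.

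Haemoglobin is built from alpha-type and beta-type chains that each hold a heme group, and it is made in red cell precursors. Genes of each cluster are switched in order during development: HBE1 and HBZ are embryonic, HBG1 and HBG2 encode the fetal gamma chains, and HBB and HBD are used after birth. In adult red cell precursors the gamma genes are held silent by repressors such as BCL11A together with histone deacetylase complexes, and histone deacetylase inhibitors are known for raising gamma globin in those cells. Liver cells are not a site of adult haemoglobin synthesis, although the fetal liver holds red cell precursors.

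Expression was measured by TempO-Seq, a sequencing method that ligates neighbouring probes on a target RNA and counts the products, on lysates of HepaRG, a human hepatic cell line that was used differentiated and whose cell type the labels give as liver progenitor cells. Cells were exposed for 72 hours, with daily renewal, to 1 of 8 inhibitors of histone deacetylases, each given at 5 concentrations that are numbered upwards from C1 to C5. In the labels, C1 and C5 were 0.041722 and 0.86 µM for apicidin, 0.177222 and 3.9 µM for mocetinostat, 0.001468 and 0.084 µM for panobinostat, 4.94 and 94.5 µM for scriptaid, 1.143333 and 44 µM for tacedinaline, 0.018811 and 1.5237 µM for trichostatin A, and 0.404778 and 23.5 µM for vorinostat. The labels of valproic acid give 100.478 at C1 and 3038 at C5, and since its protocol text lists smaller values under that same unit, the unit is unsettled. Replicates 1, 2 and 3 of each group were HepaRG batches B326, B330 and B303, and panobinostat C3 and trichostatin A C4 lacked batch 3, which left 118 libraries in 40 groups. All cells were of 1 line, and no solvent control library was used here, so that C1 of the same chemical was the reference and any effect that C1 itself had already brought about was missed.

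Total counts per library ranged from 1061359 to 5250260, with a median of 3702007. The floor of 3 counts stood for 2.83 CPM (counts scaled to the library total) in the shallowest library and 0.571 CPM in the deepest, and such limits cover counting error only. Of the hepatocyte marker genes, ALB, the gene of serum albumin, was detected in all 118 libraries. The 3 libraries least like their group mates were scriptaid C4 replicate 3 (Pearson r = 0.817 across features), mocetinostat C2 replicate 3 (r = 0.839) and trichostatin A C1 replicate 3 (r = 0.88). Without them, an alternative chosen after seeing the data, the number of chemicals in which HBG1 was called stayed at 7 by trend and at 7 at C5.

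Of the 10 globin genes, HBG1, a fetal gamma-globin gene, was the single one expressed at a level that could be tested. HBG1 had at least 1 count in 116 of 118 libraries and at most 355 counts, in replicate 3 of apicidin C3. Counts in every library were 0 for HBB and HBG2, and likewise for HBA1, HBZ and HBQ1. Over the 412149726 counts of all libraries together, 0 counts allow a level of up to 0.00728 CPM for each of these 5 features. HBG1 and HBG2 are near-identical copies that neighbour each other on chromosome 11 in the RefSeq annotation of GRCh38.p14, as do HBA1 and HBA2 on chromosome 16. How reads of the copies were divided is not given in the sources used here, so the counts of the HBG1 feature may stem from either gamma gene.

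**Figure D1:**
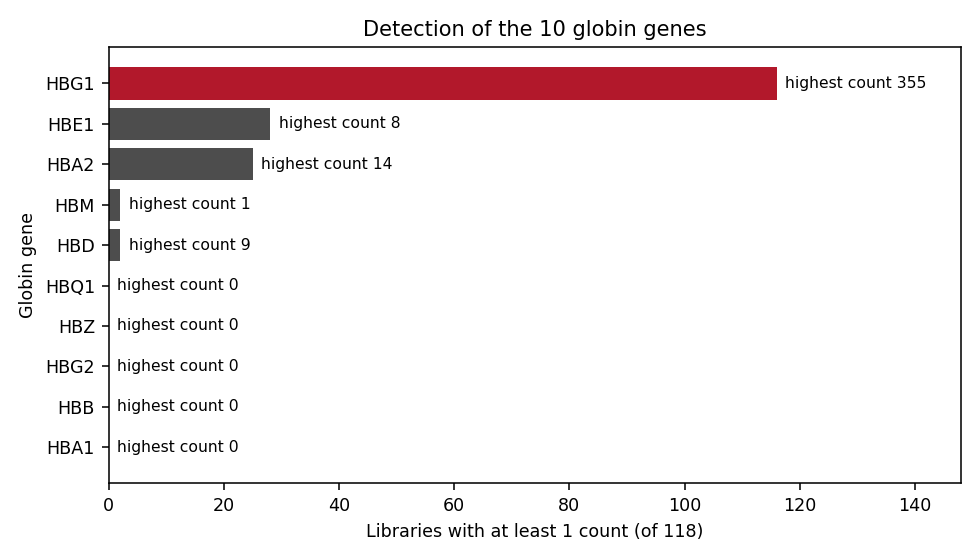
Number of libraries (x axis, of 118) with at least 1 count for each of the 10 globin genes (y axis), with the highest count in any library beside each bar. HBG1 was detected in 116 libraries, HBE1 in 28, HBA2 in 25, HBD and HBM in 2 each, and the other 5 genes in none.

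The 4 remaining genes were detected at a few counts. HBE1, the embryonic beta-type gene, had at least 1 count in 28 libraries and at most 8 counts, in replicate 2 of apicidin C3, where the other libraries of the group had 2 and 5. Libraries with HBE1 counts numbered 2 of 24 at C1, 5 of 24 at C2, 10 of 23 at C3, 8 of 23 at C4 and 3 of 24 at C5. HBE1 was thus seen most often at the middle concentrations, but at levels near the floor.

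HBA2, an adult alpha-globin gene, had counts in 25 libraries, and 9 of these were among the 15 mocetinostat libraries. At mocetinostat C5 the 3 libraries had 1, 4 and 14 counts, and in vorinostat HBA2 had 0 counts in all 15 libraries. HBD, which encodes the minor adult delta chain, had 9 counts in replicate 3 of vorinostat C5 and 2 in replicate 2 of tacedinaline C5. HBM, the mu-globin gene, had 1 count in each of 2 libraries. None of these 4 features passed the filter on low counts in any chemical. Without that filter, the trend described below was called rising for HBA2 in mocetinostat (edgeR adjusted p = 0.0305) and tacedinaline (edgeR adjusted p = 0.00192), for HBD in tacedinaline (edgeR adjusted p = 0.0378) and vorinostat (edgeR adjusted p = 0.00279) and for HBE1 in valproic acid (edgeR adjusted p = 0.0439). Those calls rest on at most 14 counts in any library. Each HBD call rests on 1 library with counts. Without the filter, C5 against C1 was not called for HBD in tacedinaline (edgeR adjusted p = 0.449) or vorinostat (edgeR adjusted p = 0.0866).

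HBG1 rose with concentration in 7 of 8 chemicals. The test was a linear slope on log2 concentration in each chemical, the trend, expressed as the log2 change that the slope gives between C1 and C5. A feature was called when its edgeR Benjamini-Hochberg adjusted p was under 0.05 and its change at least 1.5-fold. Fitted rises of the 7 called chemicals lay between 2.61 in mocetinostat and 5.29 in panobinostat on the log2 scale. The share of all tested features called rising by trend was 17.2% in apicidin, 17.9% in mocetinostat, 8.06% in panobinostat, 6.83% in scriptaid, 21.8% in tacedinaline, 0.0154% in trichostatin A, 7.16% in valproic acid and 24.4% in vorinostat. Features with a greater fitted trend made up 0.137% of those tested in panobinostat, 0.177% in valproic acid, 0.409% in apicidin and 0.499% in vorinostat. This share was 0.539% in scriptaid, 2.51% in tacedinaline and 3.34% in mocetinostat. In trichostatin A, where HBG1 had few counts and was not called, it was 0.354%. A low share was thus also reached without a call.

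**Figure D2:**
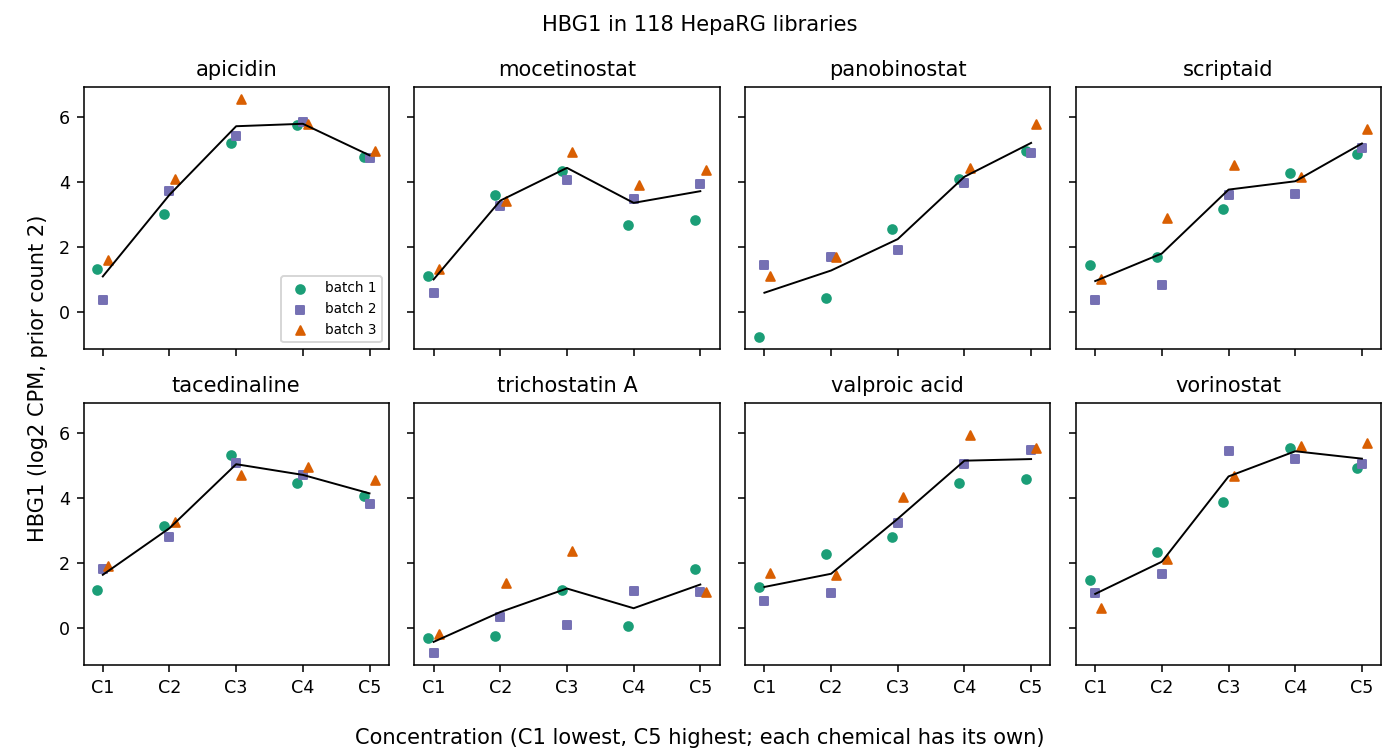
HBG1 level (y axis, log2 CPM with a prior count of 2) at each concentration (x axis) in 8 chemicals, with 1 point per library coloured by HepaRG batch and a line through the group means. C5 lay above C1 in all 24 pairs of a chemical and 1 of the 3 batches, and the level was highest at C3 or C4 in apicidin, mocetinostat, tacedinaline and vorinostat.

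At C1 the level was low in every chemical. Group means lay between 1.23 CPM ± 1.11 (SD, n = 3) in panobinostat and 2.60 CPM ± 0.821 (SD, n = 3) in tacedinaline, with trichostatin A lower, at 0.174 CPM ± 0.155 (SD, n = 3). The highest mean of all 40 groups was 56.8 CPM ± 31.4 (SD, n = 3) at apicidin C3. In the order of the 40 group means, 37 of 39 neighbouring pairs had overlapping ranges, so most neighbours in that order did not differ beyond their spread. The exceptions were apicidin C4 (54.7 CPM) above vorinostat C4 (43.1 CPM), and tacedinaline C2 (7.89 CPM) above panobinostat C3 (4.25 CPM). In both pairs the chemicals were on different plates, so chemical and plate cannot be told apart. Panobinostat C3 also lacked batch 3.

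In panobinostat, a hydroxamic acid, HBG1 rose up to the highest concentration, and C2, C3 and C4 were 0.004403, 0.01321 and 0.03963 µM. Its counts in batches 1, 2 and 3 were 0, 10 and 5 at C1, 3, 10 and 10 at C2, 53, 54 and 71 at C4, and 108, 120 and 197 at C5. At C3 the 2 libraries had 20 and 13. All libraries of C4 and C5 lay above all libraries of C1 to C3. The change against C1 was first called at C4 (log2 change 3.80, SE 0.585, edgeR adjusted p = 0.000754) and reached 4.91 at C5 (SE 0.583, 30.0-fold, edgeR adjusted p = 3.40e-06). The share of features called rising was 0.0% at C2, 0.00763% at C3, 1.16% at C4 and 6.77% at C5.

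Scriptaid, also a hydroxamic acid, with 14.82, 44.46 and 60 µM at C2, C3 and C4, likewise had its highest level at C5. HBG1 counts were 7, 3 and 5 at C1, 7, 5 and 21 at C2, 20, 40 and 88 at C3, 42, 39 and 24 at C4, and 67, 114 and 102 at C5. In CPM, the 3 libraries of C5 (28.5 to 49.3 CPM) lay above all libraries of the other concentrations. The change was first called at C3 (log2 change 3.31, SE 0.610, edgeR adjusted p = 0.00889) and was 4.72 at C5 (SE 0.619, edgeR adjusted p = 1.72e-05). Without replicate 1, and likewise without replicate 2, the first call was at C5. Without the C4 library that stood apart, the C4 change was 3.35 (edgeR adjusted p = 0.000537) against 3.48 with it (edgeR adjusted p = 0.00265). The share of features called rising was 0.0% at C2, 0.461% at C3, 2.2% at C4 and 12.8% at C5.

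In valproic acid, a short branched fatty acid, HBG1 reached its upper level at C4. The labels give 301.433, 904.3 and 2712.9 for C2, C3 and C4. The counts were 9, 4 and 11 at C1, 18, 6 and 9 at C2, 29, 37 and 64 at C3, 101, 127 and 195 at C4, and 112, 183 and 162 at C5. The means of C4 and C5, 38.2 CPM ± 20.2 (SD, n = 3) and 37.6 CPM ± 12.2 (SD, n = 3), differed by less than their spread. The first call was at C3 (log2 change 2.40, SE 0.509, edgeR adjusted p = 0.0175), or at C4 without any 1 of the replicates. The C5 change was 4.27 (SE 0.497, edgeR adjusted p = 3.05e-06), and 0.0%, 0.293%, 5.51% and 4.84% of features were called rising at C2 to C5.

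In apicidin, a cyclic tetrapeptide, HBG1 was called from C2 onwards, with 0.125167, 0.3755 and 0.5 µM at C2, C3 and C4. The counts were 9, 3 and 9 at C1, 30, 53 and 56 at C2, 147, 166 and 355 at C3, 201, 245 and 202 at C4, and 102, 107 and 121 at C5. The libraries of C1 lay below all others, and those of C5 lay below all those of C3 and C4. Against C1 the log2 change was 2.84 at C2 (SE 0.454, edgeR adjusted p = 0.0261), 5.07 at C3 (SE 0.441, 33.6-fold, edgeR adjusted p = 1.20e-07) and 4.04 at C5 (SE 0.441, edgeR adjusted p = 7.38e-07). HBG1 was among 9 features, 0.0708% of those tested, called rising at apicidin C2, and 6.94%, 11.1% and 13.8% were called at C3, C4 and C5. Without replicate 2, and likewise without replicate 3, the first call was at C3.

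Mocetinostat, a benzamide, had its highest mean at C3, with 0.531667, 1.595 and 2.5 µM at C2, C3 and C4. The counts were 6, 4 and 7 at C1, 43, 31 and 42 at C2, 66, 72 and 108 at C3, 22, 40 and 53 at C4, and 25, 57 and 66 at C5. The ranges of C2, C4 and C5 overlapped. The change against C1 was 2.86 at C2 (SE 0.529, edgeR adjusted p = 0.0345) and 3.30 at C5 (SE 0.530, edgeR adjusted p = 0.000190), and 0.153% of features were called rising at C2, 6.44% at C3, 12.1% at C4 and 14.8% at C5. Without replicate 1, and likewise without replicate 2, the first call was at C3. Without replicate 2 the C4 change was not called (2.57, edgeR adjusted p = 0.0590). The trend of 2.61 (SE 0.773, edgeR adjusted p = 0.0131) was not called without replicate 2 (2.44, edgeR adjusted p = 0.0920) or without replicate 3 (2.24, edgeR adjusted p = 0.152). Without the C2 library that stood apart, the C2 change was 2.90 (edgeR adjusted p = 0.00126).

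Tacedinaline, a benzamide too, had its highest mean at C3, with 3.43, 10.29 and 30.87 µM at C2, C3 and C4. The counts were 2, 10 and 13 at C1, 21, 22 and 39 at C2, 96, 65 and 44 at C3, 54, 106 and 100 at C4, and 32, 39 and 56 at C5. The libraries of C1 lay below all others, and the ranges of C3 and C4 overlapped. The first call was at C3 (log2 change 3.55, SE 0.404, 11.7-fold, edgeR adjusted p = 5.59e-09), and at C5 the change was 2.68 (SE 0.410, edgeR adjusted p = 8.00e-07). The share of features called rising was 0.297% at C2, 5.44% at C3, 16.3% at C4 and 18.7% at C5.

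In vorinostat, a hydroxamic acid, HBG1 reached its highest mean at C4, with 1.214333, 3.643 and 10.929 µM at C2, C3 and C4. The counts were 4, 6 and 3 at C1, 9, 10 and 12 at C2, 25, 72 and 38 at C3, 67, 110 and 157 at C4, and 36, 68 and 87 at C5. All libraries of C3 to C5 lay above all those of C1 and C2. The first call was at C3 (log2 change 4.20, SE 0.465, edgeR adjusted p = 1.20e-07), and the C5 change was 4.74 (SE 0.458, 26.8-fold, edgeR adjusted p = 1.89e-10). The share of features called rising was 0.0086% at C2, 3.18% at C3, 15.6% at C4 and 22.7% at C5.

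Trichostatin A, another hydroxamic acid, had the lowest HBG1 counts, with 0.056433, 0.1693 and 0.5079 µM at C2, C3 and C4. HBG1 counts were 1, 0 and 1 at C1, 1, 2 and 9 at C2, 7, 2 and 17 at C3, 2 and 5 in the 2 libraries of C4, and 11, 6 and 5 at C5. The libraries of C5 lay above those of C1, but no test called HBG1 in this chemical. The log2 change at C5 was 3.30 (SE 1.26, edgeR adjusted p = 0.448), or 3.71 without the C1 library that stood apart (edgeR adjusted p = 0.326), and the trend was 2.11 (SE 1.09, unadjusted p = 0.0664 and adjusted p = 0.606 with edgeR). Summed over libraries there were 22 counts at C5 and 2 at C1, a ratio of 11.3 per count sequenced, with an exact 95% interval of 2.78 to 99.3 that covers counting error only. In this chemical 0.0% of features were called rising at each of C2, C3, C4 and C5, so no feature was called rising in these comparisons. That HBG1 missed the threshold does not show that it did not change there. Its highest group mean, at C3, was 2.25 CPM ± 2.11 (SD, n = 3).

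**Figure D3:**
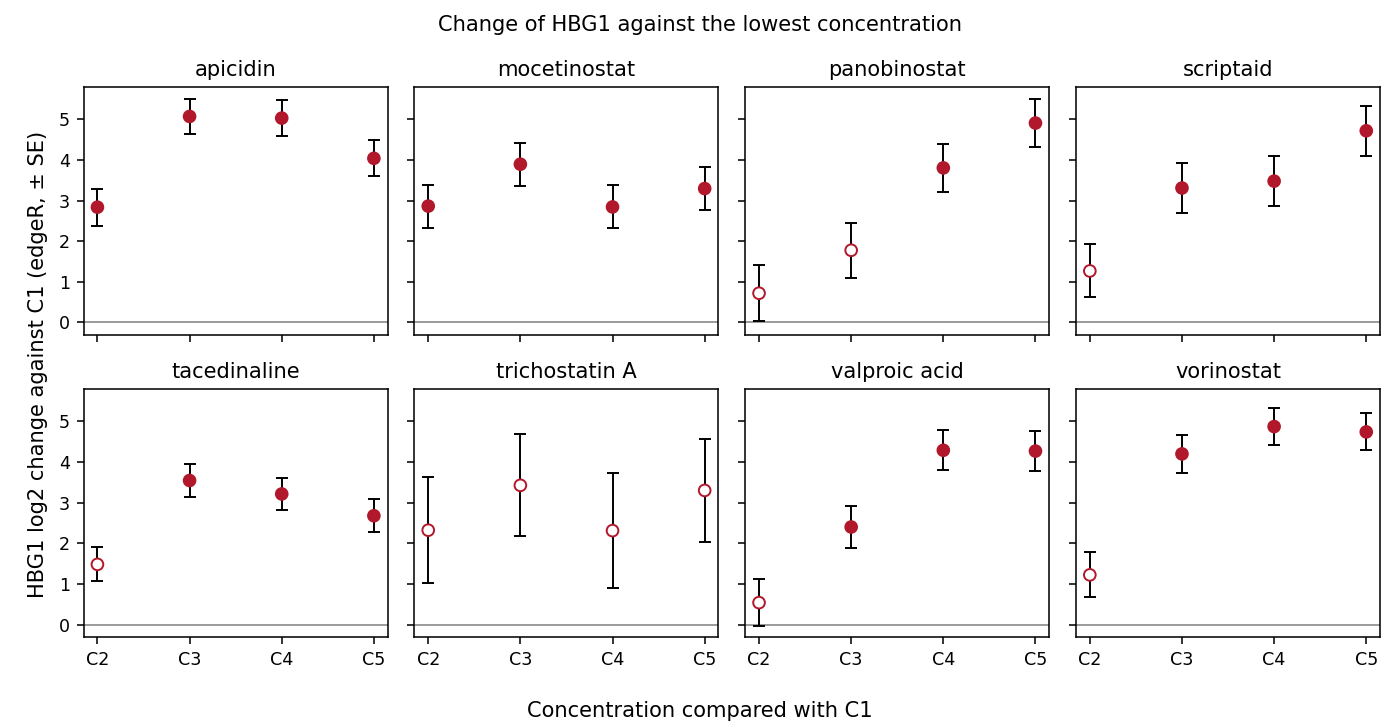
Log2 change of HBG1 against C1 (y axis, edgeR estimate with its SE as bars) at C2 to C5 (x axis) in each chemical; filled points were called (adjusted p under 0.05 and at least 1.5-fold), open points were not. Apicidin and mocetinostat were called from C2, scriptaid, tacedinaline, valproic acid and vorinostat from C3, panobinostat from C4, and trichostatin A at none.

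The shape at high concentrations varied between chemicals. The comparison of C5 with C3, chosen after the values were seen, was called rising for HBG1 in panobinostat (log2 change 3.13, SE 0.593, edgeR adjusted p = 0.00139), valproic acid (1.87, SE 0.412, edgeR adjusted p = 0.0137) and scriptaid (1.41, SE 0.501, edgeR adjusted p = 0.0466). The share of all features rising in this comparison was 2.49%, 0.532% and 9.94% in those chemicals. The valproic acid call was lost without replicate 1 (1.86, edgeR adjusted p = 0.110) and without replicate 2 (1.64, edgeR adjusted p = 0.212). The scriptaid call was lost without replicate 1 (1.29, edgeR adjusted p = 0.255), without replicate 2 (1.36, edgeR adjusted p = 0.200) and without a scaling factor (1.43, edgeR adjusted p = 0.0558).

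In the other chemicals no call was made. The estimate was -1.03 in apicidin (SE 0.333, edgeR adjusted p = 0.118), where 1.77% of features were called falling, and it was called without the filter on low counts (edgeR adjusted p = 0.0190). It was -0.87 in tacedinaline (SE 0.333, edgeR adjusted p = 0.0510), where 13.2% of features were called falling. With batch as a replicate block the tacedinaline value was -0.90 and was called (edgeR adjusted p = 0.0454), as it was with DESeq2 and without replicate 3. The estimates were -0.60 in mocetinostat (edgeR adjusted p = 0.497), -0.13 in trichostatin A (edgeR adjusted p = 0.989) and 0.54 in vorinostat (edgeR adjusted p = 0.206), the last of which was called without replicate 2 (1.17, edgeR adjusted p = 0.0307).

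Within each HepaRG batch the direction of the rise was the same. Over the 3 batches and 8 chemicals, HBG1 was higher at C5 than at C1 in 24 of 24 pairs of a chemical and a batch, by 1.30 to 5.73 log2 CPM, and higher at C3 than at C1 in 23 of 23. The largest rise from C1 to C5, 5.73 in batch 1 of panobinostat, started from 0 counts at C1, so its size depends on the prior count. The trichostatin A pairs were near the floor, with at most 11 counts at C5. Its C5 mean of 2.02 CPM lay below the C1 mean of tacedinaline, 2.60 CPM. From C3 to C5 it was higher in 12 such pairs and lower in 11.

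The batches themselves differed in HBG1. Batch 3 had the highest level in 26 of the 38 groups with 3 libraries, batch 1 in 8 and batch 2 in 4. The mean deviation from the group mean was 0.36 log2 CPM in batch 3, -0.19 in batch 1 and -0.16 in batch 2. In a model of all 118 libraries with the 40 groups as covariate, added after the values were seen, batch 3 was above batch 1 by 0.62 on the log2 scale (SE 0.124, 1.54-fold, edgeR adjusted p = 0.000825) and above batch 2 by 0.55 (SE 0.121, 1.46-fold, edgeR adjusted p = 0.00349), while batch 2 was above batch 1 by 0.07 (edgeR adjusted p = 0.906). The difference from batch 1 was called and that from batch 2 was under 1.5-fold. Of all features tested, 2.76% differed between the batches at an adjusted p under 0.05, and 0.505% were called between batches 3 and 1 and 0.397% between batches 3 and 2. On the plate of scriptaid, tacedinaline and vorinostat alone the difference from batch 1 was 0.38 (edgeR adjusted p = 0.283), and on the plate of the other chemicals it was 0.77 (edgeR adjusted p = 0.00422). On both plates the wells of a batch lay together in adjoining rows, so batch and well position cannot be told apart. At C1 alone HBG1 did not pass the filter on low counts.

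**Figure D4:**
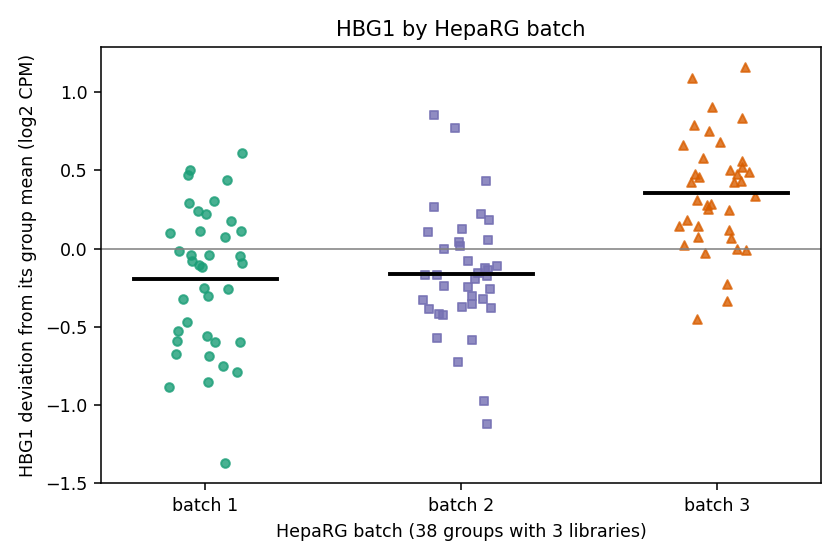
Deviation of HBG1 from its group mean (y axis, log2 CPM) by HepaRG batch (x axis), with 1 point for each of the 38 groups with 3 libraries and a bar at the mean of the batch. The mean lay at 0.36 in batch 3, against -0.19 and -0.16 in batches 1 and 2.

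Genes that control globin expression were called in both directions, and in each less often than all features together. Of the 44 features tested, 22 were called in no chemical. Over the tests of 44 features of globin regulators in the 8 chemicals, 27 were called rising and 26 falling by trend, or 8.28% and 7.98% of the tests, against 12.7% rising and 12.7% falling over all 101732 tests. BCL11A, the repressor of the gamma genes, rose in 5 chemicals, by 1.87 in valproic acid to 4.74 in vorinostat on the log2 scale, which is the same direction as HBG1. Its counts in vorinostat were 0, 3 and 3 at C1 and 18, 24 and 25 at C5, so that the groups did not overlap. In apicidin they were 3, 0 and 4 at C1 and 24, 37 and 30 at C5. In valproic acid, where BCL11A was called rising, they were 5, 1 and 11 at C1 and 45, 13 and 9 at C5, and overlapped. In trichostatin A, where it was not called, they were 1, 9 and 2 at C1 and 1, 5 and 8 at C5, and overlapped as well. Without replicate 2 the number of chemicals with BCL11A called rising was 3.

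HDAC3, a class I deacetylase, rose in 5 chemicals by 1.31 to 2.34, for example from 60.3 CPM ± 9.56 at C1 (SD, n = 3) to 257 CPM ± 18.7 at C5 (SD, n = 3) of tacedinaline. NFYB, a subunit of the CCAAT-binding factor NF-Y, rose in 5 by 0.81 to 1.68. SOX6, which represses gamma globin together with BCL11A, fell in 5 chemicals, with trends from -2.53 to -0.79, and in mocetinostat its mean was 122.6 CPM ± 23.8 at C1 (SD, n = 3) and 34.0 CPM ± 12.3 at C5 (SD, n = 3). NFYC, another NF-Y subunit, fell in 5 (2 without replicate 1, 3 without either other replicate), and MTA1, of the NuRD complex, fell in 3. ZBTB7A, a further gamma-globin repressor, was called falling in 2 chemicals, with trends of -0.69 and -0.68, and LIN28B, which marks the fetal programme, in none, with trends from -0.51 to 0.26; both were chosen for their role after their values were seen. The erythroid factors KLF1, GATA1, TAL1 and NFE2 were near the floor and could not be tested, with at most 14, 5, 2 and 5 counts in any library. Other factors of the list were tested. ZFPM1 was tested in 8 chemicals and MYB in 4, and neither was called. LDB1 was tested in 8 and called falling in 1.

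**Figure D5:**
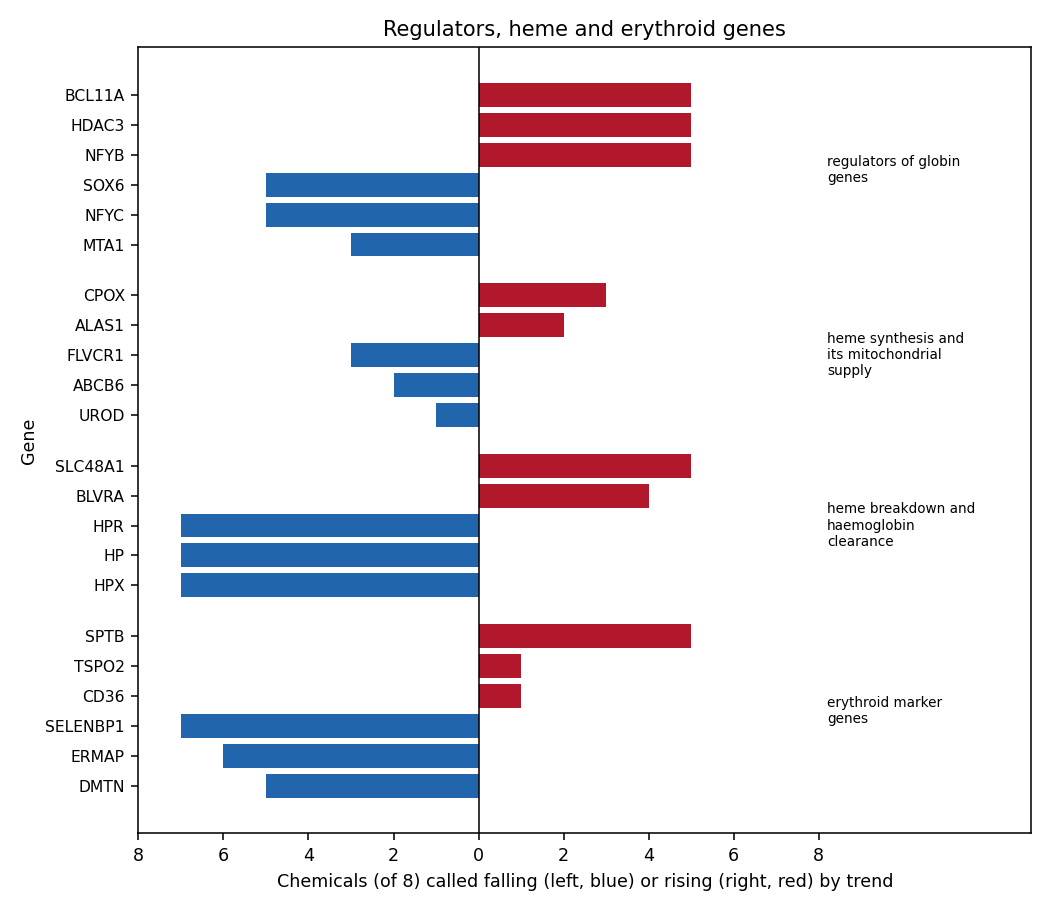
Number of the 8 chemicals (x axis) in which each named gene (y axis) was called rising (red, right) or falling (blue, left) by trend, in 4 gene lists. BCL11A, HDAC3 and NFYB rose in 5 chemicals, and HP, HPR and HPX fell in 7.

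Heme, the group carried by every globin chain, is made in steps from ALAS1 in most cells or ALAS2 in red cell precursors. Of 140 tests of heme synthesis genes, 16 were called rising (11.4%) and 8 falling (5.71%), beside 12.7% in each direction over all features, so the rising share was near that of all features. CPOX, a mitochondrial enzyme of the pathway, rose in 3 by 1.22 to 1.73, and ALAS1 was called rising in 2 (0 without replicate 2, 1 without either other replicate). The heme exporter FLVCR1 fell in 3 chemicals (1 without replicate 1), the transporter ABCB6 in 2 (1 without replicate 1 or 2) and UROD in 1 (0 without replicate 2 or 3, and 2 without replicate 1). ALAS2 had at most 4 counts in any library.

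Among genes that clear haemoglobin and heme, 29 of 72 tests were called falling (40.3%) and 9 rising (12.5%), beside the 12.7% in each direction over all features. HP, the gene of haptoglobin, which binds free haemoglobin in plasma, and HPX, of hemopexin, which binds free heme, each fell in 7 chemicals. HP was 12560 CPM ± 1928 at C1 (SD, n = 3) and 297 CPM ± 107 at C5 (SD, n = 3) of vorinostat, and its called trends lay between -5.71 and -1.92. Called trends of HPX lay between -4.40 and -0.99. HPR, a near-identical neighbour of HP whose reads may be shared with it, fell in 7 chemicals as well. SLC48A1, a heme transporter, rose in 5 by up to 2.41, and BLVRA, which turns biliverdin to bilirubin, rose in 4, or in 2 without replicate 1 and 1 without replicate 2.

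Of the other proteins with a globin fold, cytoglobin (CYGB) was the one that could be tested, and it moved the opposite way from HBG1. It fell in 6 chemicals with trends from -4.94 to -0.80, and in mocetinostat its mean was 98.7 CPM ± 4.68 at C1 (SD, n = 3) and 2.56 CPM ± 0.658 at C5 (SD, n = 3). Myoglobin (MB), neuroglobin (NGB) and androglobin (ADGB) had at most 13, 7 and 7 counts in any library.

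Many markers of red cell precursors had few counts, while others on the list were expressed. Of 39 features on that list, 23 had at most 20 counts in every library, 2 of them 0 throughout. SLC4A1 (band 3), EPB42 and HEMGN reached at most 2, 6 and 5 counts. The filter on low counts was passed by 17 features in at least 1 chemical, with AHSP in 1 and DMTN, ERMAP and SPTB in all 8. The summed level of the list lay between 460 and 649 CPM in the C1 groups and between 187 and 478 CPM in the C5 groups. Of 97 tests, 37 were called falling (38.1%) and 7 rising (7.22%), against the 12.7% each way over all features. SPTB, a spectrin chain, rose in 5 chemicals by 1.02 to 2.53. TSPO2 rose in mocetinostat (0 chemicals without replicate 2 or 3) and CD36 in valproic acid (0 without any 1 replicate). SELENBP1 fell in 7 chemicals, ERMAP in 6 (3 without replicate 3) and DMTN in 5.

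HBG1 rose while hepatocyte markers fell. Of 96 tests of 12 hepatocyte genes 76 were called falling (79.2%) and 0 rising, where all features gave 12.7% falling and 12.7% rising, and their summed level lay between 55100 and 92700 CPM in the C1 groups and between 4720 and 54600 CPM in the C5 groups. AHSG, TF and APOB, which encode plasma proteins, each fell in 7 chemicals. Since these were bulk lysates, fewer cells of a type and less RNA per cell cannot be told apart. Biliary and progenitor markers were called rising in 11 of 33 tests (33.3%, and 12.7% over all features), with SPP1 and SOX9 rising in 5 chemicals each. The remaining call was of 1 probe of KRT19 in 1 chemical (0 without replicate 1 or 2). The other KRT19 probe was tested in all 8 chemicals and called in none, with trends from -0.31 to 0.58. KRT7 was tested in 1 chemical and not called, with a trend of -1.78, and EPCAM was tested in none. The share thus rests mostly on SPP1 and SOX9 and does not describe the other markers. Blood and vessel markers were called rising in 0 of 19 tests and falling in 5 (26.3%, and 12.7% over all features), and PTPRC, the pan-leukocyte marker, had 0 counts in all libraries. The falling calls were CD14 in 2 chemicals (1 without replicate 3), CD68 in 2 (1 without replicate 2) and PECAM1 in 1 (0 without replicate 1 or 2). The part of these changes of cell markers in the level of HBG1 was not tested.

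Fetal liver genes gave 7 rising (21.9%) and 2 falling calls (6.25%) in 32 tests, against 12.7% in each direction over all features, and 6 of the 7 rising calls were of PEG10 alone. PEG10, an imprinted gene of fetal tissue, rose in 6 chemicals by 0.65 to 2.46, IGF2BP3 rose in 1 (0 without replicate 1 or 3), and AFP, the fetal plasma protein, fell in 2 (1 without replicate 3). LIN28B, which is on this list too, was called in no chemical.

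Around the beta cluster 6 of 26 features of neighbouring genes passed the filter in at least 1 chemical. Of their 40 tests 16 were called falling (40%, and 12.7% over all features) and 0 rising. All 16 calls were of TRIM22, TRIM5 and TRIM6, so the share does not describe the other neighbours. TRIM22 fell in 7 chemicals, from 118.7 CPM ± 7.49 at C1 (SD, n = 3) to 4.61 CPM ± 5.23 at C5 (SD, n = 3) of vorinostat, TRIM5 fell in 6 and TRIM6 in 3. Around the alpha cluster 6 of 49 tests were called rising (12.2%, near the 12.7% over all features) and 0 falling, and 5 of the 6 calls were of FAM234A, which rose by 1.13 to 1.60, while AXIN1 was called rising in 1 chemical (0 without replicate 1 or 3).

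Among 11287 other features tested in all 8 chemicals, those whose group means followed HBG1 most closely were 2 probes of CNTN1, a neural cell adhesion molecule (Pearson r = 0.935 and 0.926 over the 40 group means of log2 CPM), CREM, a cAMP-responsive transcription factor (r = 0.919), BEX5 (r = 0.913) and CALB2, the calcium-binding protein calretinin (r = 0.912). The median over all features was -0.018. The 40 means share libraries and concentrations, and the values are given as a description. CALB2 was called rising by trend in 6 chemicals and the other 4 features in 7 each.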

How the data were processed

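The authors deposited raw read counts per detector probe as whole numbers, 1 row per probe and 1 column per library; the submitters' processing notes name bcl2fastq 2.20.422, fastp 0.23.2, STAR 2.7.10b and DESeq2 1.38.0, and the genome build and probe annotation are not given in the sources used here. Of 22069 rows, 1 was incomplete and was left out, and 307 of the others were 0 in all libraries. Each chemical was fitted alone with edgeR 4.0.16 in R 4.3.3 (filterByExpr, TMM scaling, quasi-likelihood F tests, Benjamini-Hochberg adjustment over all features tested), and SE was taken from F as the size of the log2 change over the root of F. Scripts were tested on simulated data. CPM used TMM-scaled totals. Alternatives included DESeq2 1.42.0, other scaling, no filter, batch as a block, and leaving out each replicate.

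The members and gene lists were chosen with earlier results of these data known. From each list up to 3 features called in the most chemicals per direction were named (ties by the larger mean change), with any that a count of 5 or fewer consists of, and the 5 features most like HBG1. The replicate numbers pair samples, because the labels give them as HepaRG batches. After removing the group mean, 2 libraries correlated with a median r of 0.0361 within a batch (232 pairs) and -0.0146 between batches (464 pairs). The labels do not say whether the libraries of a batch came from separate cultures, and p-values measure only the spread between these libraries. Some genes of the lists are not reported here.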

Additional observations from a re-analysis of the deposited data

Results flagged for a closer look

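The change of HBG1 from C3 to C5, taken within each HepaRG batch, ran in opposite directions in different chemicals, and in 6 of 8 chemicals all batches lay on the same side. The mean within-batch difference was 2.68 log2 CPM in panobinostat (2 batches), 1.84 in valproic acid (3 batches) and 1.42 in scriptaid (3 batches). It was -0.90 in apicidin, -0.90 in tacedinaline and -0.72 in mocetinostat (3 batches each). In the other chemicals the batches were split, with 0.63, 1.00 and -1.26 in trichostatin A and 1.04, -0.39 and 1.00 in vorinostat. The difference between chemicals was not tested.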

How the results depend on the processing

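HBG1 was called by trend in 7 chemicals, and at C5 in 7, under edgeR with other size factors, library totals only, DESeq2, summed near-identical copies, no fold minimum and all libraries in 1 fit. With batch as a replicate block both counts were 7. Among the HBG1 comparisons that block changed 1 call, that of tacedinaline from C3 to C5, and it turned the trichostatin A value from C3 to C5 from -0.13 to 0.29, with no call. Without the filter on low counts the trend calls of the globin genes numbered 12, as more features were tested. Of the 5 features most like HBG1, 3 stayed among the top 5 over 118 single libraries and 3 with Spearman's correlation. Without replicate 3, HBG1 failed the filter in trichostatin A. Leaving out each replicate in turn gave 6 to 7 trend calls and 7 calls at C5. The trend calls in the other lists, without the hepatocyte, biliary and blood or vessel markers, numbered 196, with 193 under the replicate block and 154 to 161 without 1 replicate. With all libraries in 1 fit the falling calls were 4 for AFP, 5 for UROD and 5 for PECAM1, and CD36, KRT19 and AXIN1 were called in 0 chemicals. Low counts at C1, at most 13 for HBG1, limit the precision of each fold change, and at a few counts HBE1, HBA2, HBD and HBM could not be compared. With 3 libraries a group, a change missed here is not shown to be absent.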
